A study of Mus musculus with 10 samples.

Results

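miR-22 is 1 of 566 mouse miRNA probes on the NanoString panel used in this series, and it was taken as the panel row named mmu-miR-22. It was chosen because its raw count varied strongly between the 10 libraries, so its levels and their spread are given as a description without a test. The cells were B cell progenitors from C57BL/6 fetal liver at embryonic day 14.5, transformed with Abelson virus, a retrovirus whose v-Abl kinase transforms immature cells of the B lineage. All 10 cultures carried the v-Abl vector and were transformed in medium that contained IL-7. Of these, 5 were wild type (numbered 1 to 5) and 5 were Bim3’UTRmut/mut (numbered 6 to 10), with both alleles of the pro-apoptotic gene Bim altered in the 3'UTR. The labels do not give the mutated bases, nor whether the cultures of a genotype came from separate embryos or are clonal, so p-values here cover the spread among cultures, part of which may be technical. These are transformed cultures, which limits them as a model of fetal B cell progenitors.

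A miRNA guides an Argonaute protein to messenger RNAs that pair with its seed, the bases near its 5′ end, and lowers their translation and stability. miR-22 is made from an exon of a non-coding host transcript, Mir22hg, and is found in many tissues, with high levels in maturing myeloid and erythroid cells. Its reported targets include the DNA demethylase gene TET2. In mice, forced expression of miR-22 in blood stem cells raised their self-renewal and gave a myelodysplasia-like disease, whereas in some acute myeloid leukaemias it has been reported to act as a tumour suppressor.

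The Mir22 hairpin spans chr11:75463716-75463810 on the plus strand of GRCm38.p6, inside Mir22hg (chr11:75461539-75466690) and between the protein-coding genes Wdr81 and Tlcd2. The plain name miR-22 stood for the 3p arm in older miRNA naming, and no separate probe for the 5p arm was on the panel. The arms, and the 3 miRNAs with which the results below set miR-22 side by side, are printed 5′ to 3′ from RefSeq (GRCm38.p6), with the seed (bases 2 to 8) in capitals. 
miR-22-3p: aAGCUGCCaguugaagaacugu
miR-22-5p: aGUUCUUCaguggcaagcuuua
let-7b-5p: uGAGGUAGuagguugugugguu
let-7c-5p: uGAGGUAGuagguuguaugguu
miR-18a-5p: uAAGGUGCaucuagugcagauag
miR-22-3p lies at chr11:75463772-75463793 and miR-22-5p at chr11:75463734-75463755. let-7b-5p lies at chr15:85707325-85707346, let-7c-5p has copies at chr15:85706616-85706637 and chr16:77599672-77599693, and miR-18a-5p lies at chr14:115043867-115043889, all on the plus strand. Among the 442 panel probes whose names matched a RefSeq mature sequence, none of the 644 arms of the other probes had the seed of miR-22-3p. The closest without gaps, miR-449c-3p and miR-582-3p, had 13 bases in common with it. The probes miR-449c and miR-582-3p counted at most 26 and 34 in any library, and the plain name miR-449c does not give the arm read. The let-7b-5p and let-7c-5p sequences matched each other at 21 of 22 bases, but matched miR-22-3p at 8 and 9 bases. Probe sequences were not used here.

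The panel counts barcoded probes bound to tagged miRNAs. Total mouse miRNA counts were 240469 to 287546 in 8 libraries, and the 2 highest were 354826 in mutant 9 and 331407 in mutant 10. Background was set for each library at the mean + 2 SD of 8 negative control probes, which came to 90.5 to 127 counts, and 116 probes, called the kept probes below, exceeded this level in 5 or more libraries and were tested. The column headers of the raw counts, read here as 1 cartridge and its lanes, put wild type and mutant libraries in separate blocks of lanes. On that reading, effects of lane and of genotype cannot be told apart. Of 6 probes of a B-lymphoid list, which also holds miRNAs of all blood cells, 4 to 6 were above background in each library. Of 18 markers of other cell types, 0 to 2 were above background in any library.

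miR-22 was present in all 10 libraries and spread far more widely among the mutant cultures than among the wild type ones. In raw counts, wild type 1 to 5 had 341, 575, 420, 466 and 227. Mutant 6 to 10 had 105, 214, 180, 1038 and 1218. All 5 wild type counts lay between the counts of mutant 6, 7 and 8 below them and those of mutant 9 and 10 above them, so the mutant libraries enclosed the wild type range without entering it. The count of mutant 6 was close to background, at 1.10 times its threshold of 95.3 counts, and its exact Poisson 95% interval of 85.9 to 127 counts includes the threshold. The other libraries stood at 1.69 to 11.9 times their thresholds. The interval was 1151 to 1288 counts in mutant 10, clear of every wild type count, but 186 to 245 in mutant 7 and 198 to 259 in wild type 5, so the raw counts of this pair differed by less than counting error. Such intervals cover counting error only.

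**Figure D1:**
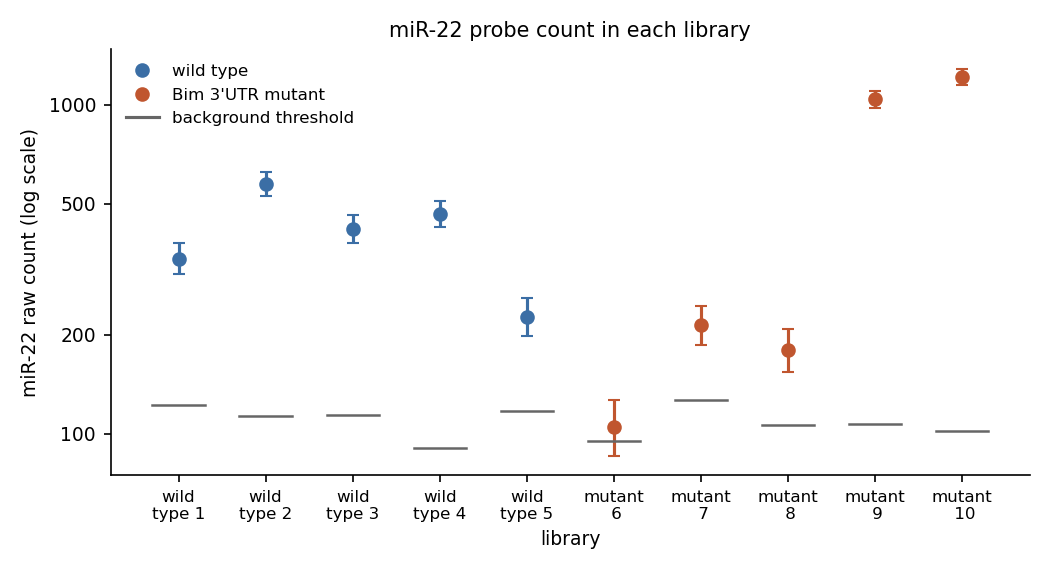
Raw count of the miR-22 probe (vertical axis, log scale) in each of the 5 wild type and 5 mutant libraries. Bars are exact Poisson 95% intervals and grey lines are the background threshold of each library; mutant 6, 7 and 8 lie below the wild type counts of 227 to 575, and mutant 9 and 10 lie above them at 1038 and 1218.

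Scaling for library size left this order in place. Counts were divided by library sizes corrected with TMM, edgeR's trimmed mean scaling, and are called normalised counts below. Wild type 1 to 5 had 344, 595, 437, 520.1 and 253 normalised counts. Mutant 6 to 10 had 112, 209, 169, 842 and 1136. Against the wild type mean of 429.8 ± 136 (SD, n = 5), mutant 6, 7 and 8 were at 0.261, 0.485 and 0.393 times that level, and mutant 9 and 10 at 1.96 and 2.64 times. From lowest to highest the order was mutant 6, 8 and 7, wild type 5, 1, 3, 4 and 2, then mutant 9 and 10. The steps between neighbours in this order were 1.14 to 1.51-fold. The step from mutant 7 to wild type 5 was the least secure, at 1.21-fold with an exact counting interval of 1.00 to 1.47, which leaves out any error of the scaling. Under scaling by housekeeping mRNAs mutant 7, at 219.5, lay above wild type 5, at 201, while under DESeq2, 100-highest, positive-control and miRNA-total scaling and background subtraction the mutant libraries stayed outside the wild type range as above.

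As a share of all mouse miRNA counts, miR-22 made up 0.0919% to 0.226% in wild type libraries. Mutant 6, 7 and 8 had shares of 0.0418%, 0.0839% and 0.0626%, whereas mutant 9 had 0.293% and mutant 10 had 0.368%. The exact binomial 95% interval was 0.0342% to 0.0506% for mutant 6 and 0.347% to 0.389% for mutant 10. Ranked by normalised count among the 116 kept probes, miR-22 stood 37th in mutant 10 and 110th in mutant 6. The ranks compare probes, which may differ in efficiency, so they describe the panel signal and not molecules per cell.

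The highest library exceeded the lowest 10.1-fold in normalised counts. The median of this ratio over all kept probes was 1.71-fold, and miR-22 ranked 13th of 116. Because background makes up a large part of the lowest count, subtracting the mean of the negative controls raised the ratio to 17.4-fold. Without mutant 6 it was 6.73-fold and without mutant 10 it was 7.51-fold. Probes of similar mean level differed in spread. miR-30d, a member of the miR-30 family, and miR-28 varied 1.77-fold and 1.36-fold, while miR-210, a miRNA induced by hypoxia, varied 33.8-fold and miR-2137 varied 6.55-fold. Next above miR-22 in spread were miR-2133 and miR-1196, both at 10.6-fold, and next below were miR-2146 at 9.95-fold and miR-2134 at 9.77-fold. The SD of log2 normalised miR-22 counts was 0.49 in wild type and 1.48 in mutant libraries, against medians over kept probes of 0.18 and 0.30.

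**Figure D2:**
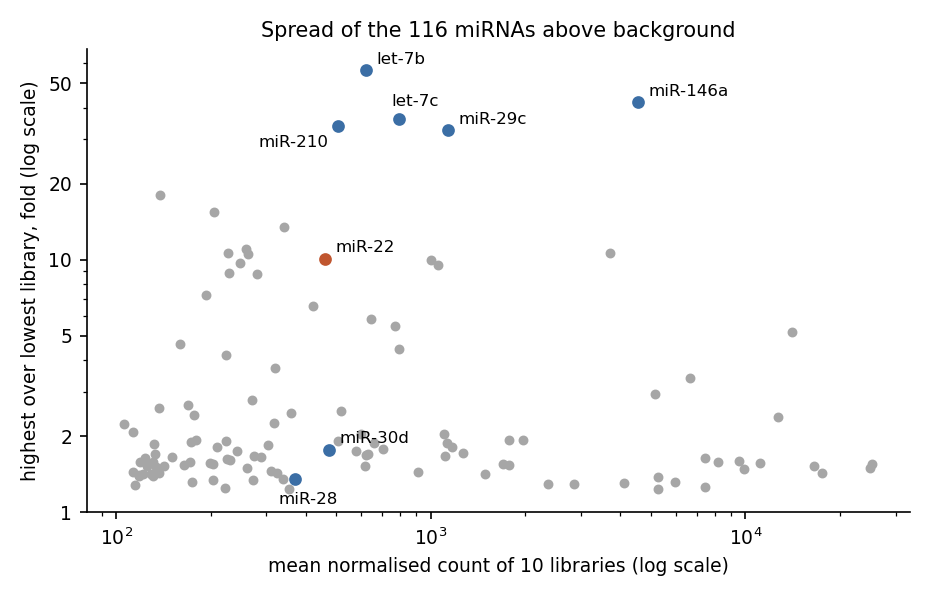
Fold between the highest and the lowest library (vertical axis, log scale) against the mean normalised count of 10 libraries (horizontal axis, log scale) for the 116 miRNA probes above background, 1 point each, with some probes labelled in blue. miR-22 (orange) lies at 10.1-fold, below let-7b at 56.4-fold and far above miR-30d at 1.77-fold and miR-28 at 1.36-fold, which have similar mean counts.

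The comparison the study was built for is mutant against wild type, and miR-22 did not differ between the genotypes beyond the spread of the libraries. The mean normalised count was 429.8 ± 136 for wild type and 494 ± 465 for the mutant (SD, n = 5 each). The medians went the other way, at 437 in wild type and 209 in mutant libraries, since 3 of the 5 mutant libraries lay low and 2 lay high. In edgeR's quasi-likelihood test over all kept probes the log2 fold change, mutant over wild type, was 0.20 (SE 0.63, 95% interval -1.22 to 1.63; Benjamini-Hochberg adjusted p = 0.947). The interval runs from 2.34-fold lower to 3.09-fold higher, so a mean difference of that size in either direction was not resolved. Over the whole panel 0 of 116 probes passed the adjusted threshold of 0.05 in edgeR (0%), and 11 had an unadjusted p under 0.05 (9.48%). In DESeq2 5 of 115 tested passed (let-7i, miR-26b, miR-29b, miR-30d and miR-350). miR-22 was in none of these counts. As a share of miRNA counts the difference was 0.00966 percentage points, from 0.160% ± 0.0529 in wild type to 0.170% ± 0.150 in mutant libraries (SD, n = 5 each; exact two-sided permutation p = 0.897, where the smallest possible is 0.00794).

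The sign of the genotype difference depended on single mutant libraries, on some pairs of libraries and on the method. Without mutant 9 the log2 fold change was -0.01 and without mutant 10 it was -0.41, while it was 0.45 without mutant 6. limma-voom, which averages on the log scale, gave -0.35. In edgeR the estimate was also below 0 without wild type 1 and 5 (-0.067) and without wild type 3 and 5 (-0.061). Leaving out mutant 9 and mutant 10 together gave -1.39 (95% interval -2.15 to -0.64; edgeR adjusted p = 0.0550). With the filter on low counts applied again to those 8 libraries, an alternative chosen after the data were seen, it was -1.40 (edgeR adjusted p = 0.0465). Since these libraries stand out by the miR-22 count itself, these values describe how the mean is composed and are no separate test of genotype.

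**Figure D3:**
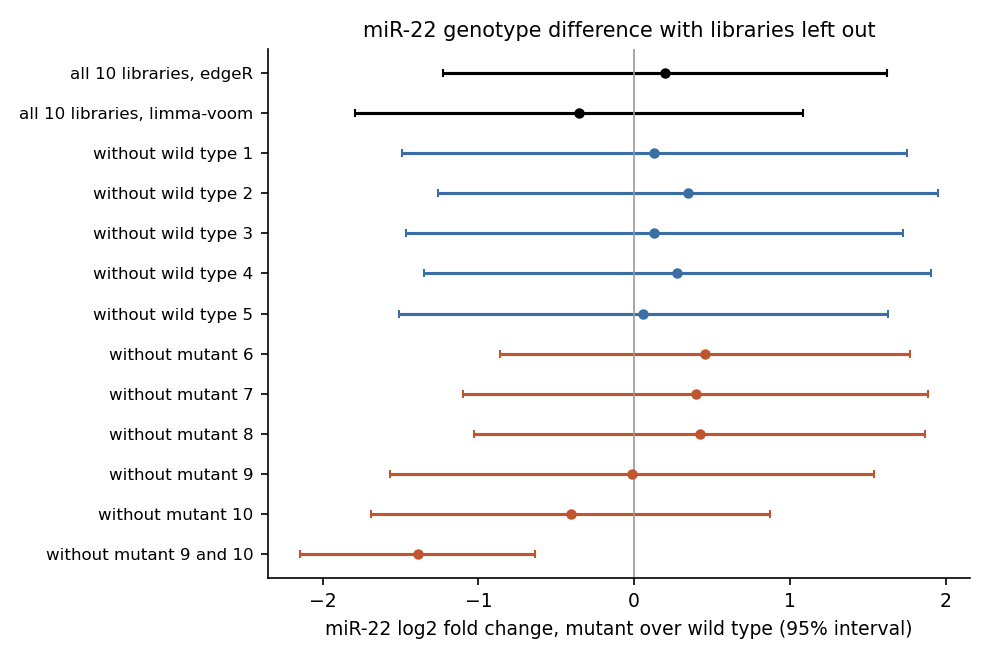
Log2 fold change of miR-22, mutant over wild type, with its 95% interval (horizontal axis), for all 10 libraries in edgeR and limma-voom and, in edgeR, with single libraries and with mutant 9 and 10 left out (black, all libraries; blue, wild type left out; orange, mutant left out). The estimates run from 0.45 without mutant 6 to -0.41 without mutant 10 and -1.39 without mutant 9 and 10.

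Other miRNAs varied with miR-22 across the 10 libraries, in part only through the split among the mutant ones. The 10 libraries share the same scaling and, as read from the column headers, 1 cartridge. Likeness was measured as Pearson's r between log2 normalised counts over these libraries, for all 115 other kept probes. It is a description without a p-value, since the highest values were picked from many. The median r was 0.00814, with 61 probes above 0. The highest values belonged to let-7b (0.865), miR-21 (0.853), let-7c (0.852), miR-146a (0.850), miR-1224 (0.819) and miR-181a (0.790). Spearman's rho for these 6 was 0.939, 0.855, 0.915, 0.818, 0.891 and 0.830. Without mutant 6 and mutant 10, the libraries farthest from the miR-22 median, r was 0.826, 0.695, 0.834, 0.674, 0.852 and 0.634. Under 5 other scalings the r of let-7b ran from 0.833 to 0.862 and that of miR-181a from 0.725 to 0.825.

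let-7b and let-7c, members of the let-7 family, which restrains proliferation genes, had the same arrangement as miR-22. In both, mutant 6, 7 and 8 lay below every wild type library and mutant 9 and 10 above. Of the 116 kept probes, 3 had this arrangement (2.59%), namely miR-22, let-7b and let-7c, and 0 had the opposite one (0%). The arrangement was picked out after the values were seen. Other kept members of the let-7 family differed. Their r with miR-22 was 0.781 (let-7g), 0.392 (let-7i), 0.358 (let-7e), 0.162 (let-7a), -0.480 (let-7f), -0.629 (miR-98) and -0.727 (let-7d). let-7b had 837, 930.3, 802, 777 and 508 normalised counts in wild type 1 to 5. The mutant libraries split, with 27.8, 36.1 and 23.5 in numbers 6, 7 and 8, but 981 and 1323 in numbers 9 and 10. let-7c ranged from 679.8 to 1105 in wild type, stood at 103, 84.8 and 46.0 in mutant 6, 7 and 8, and reached 1349 in mutant 9 and 1664 in mutant 10. The level in mutant 6, 7 and 8 was lower for let-7b, at 0.0360, 0.0468 and 0.0304 times the wild type mean, than for miR-22, at 0.261 to 0.485 times. The raw let-7b counts of 26, 37 and 25 there were under the background thresholds, so those ratios hold background counts. Raw let-7c counts there were 96, 87 and 49, under the thresholds in mutant 7 and 8 and barely above the 95.3 of mutant 6. In mutant 9 and 10 the order turned, with let-7b at 1.27 and 1.72 times the wild type mean against 1.96 and 2.64 times for miR-22.

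The other miRNAs most like miR-22 matched it in part. miR-146a, a feedback regulator of NF-kB signalling, reached 12275 normalised counts in mutant 9 and 19826 in mutant 10, while wild type libraries had 1327 to 3669. It stood at 469, 1674 and 724 in mutant 6, 7 and 8, of which mutant 7 lay inside the wild type range. Its highest wild type count was in wild type 5, the wild type library lowest in miR-22. miR-181a, which tunes antigen receptor signalling in lymphocytes, stood at 8858 in mutant 9 and 10092 in mutant 10, and at 3430 to 4303 in the other mutant libraries, where wild type had 3778 to 4399.8. So miR-181a, like miR-22, was above the wild type range in mutant 9 and 10, while mutant 7 and 8 lay within the wild type range. Lying above that range in both mutant 9 and 10 was common, at 28 of the 116 kept probes (24.1%). Lying below it in mutant 6, 7 and 8 was seen in 12 of 116 (10.3%). miR-21, which is raised in many lymphoid tumours, had 2887, 4651 and 5250 in mutant 6, 7 and 8, below the wild type range of 6190 to 8822. In mutant 9 miR-21 lay inside that range at 7463, and in mutant 10 above it at 9853. Among wild type libraries, too few for a correlation of their own, miR-21 was lowest in wild type 4, which was second highest in miR-22. So the high r of miR-21 and of miR-146a lay mainly in the mutant libraries, as did that of miR-181a, which varied little in wild type. miR-1224 reached 3649 in mutant 9 and 1250.2 in mutant 10, against 456 to 1203 in wild type.

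**Figure D4:**
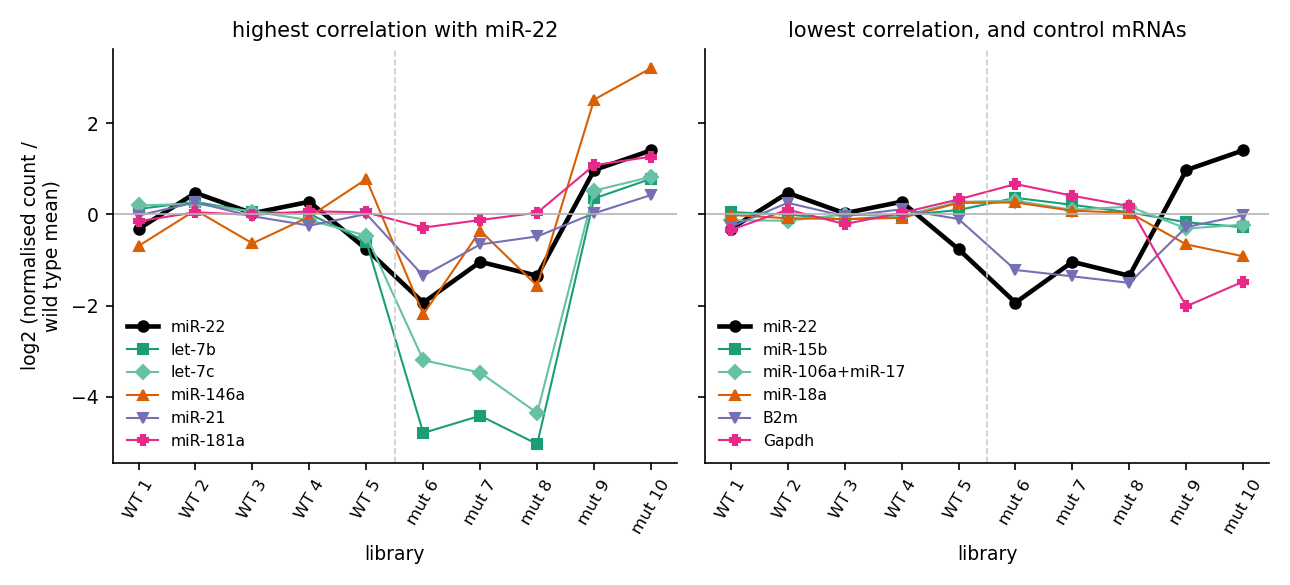
Log2 of the normalised count over the wild type mean (vertical axis) in each library for miR-22 (black) with 5 of its 6 most alike miRNAs (left) and with the 3 least alike miRNAs, B2m and Gapdh (right). Lines only join the points of a probe; miR-22, let-7b and let-7c are low in mutant 6, 7 and 8 and high in mutant 9 and 10, where Gapdh is lowest.

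The lowest correlations with miR-22 belonged to miR-15b (-0.911), of the miR-15/16 family that targets cyclins and Bcl2, the combined miR-106a and miR-17 probe (-0.898) and miR-18a (-0.860), both of the miR-17-92 cluster and its paralogue. Spearman's rho was -0.879, -0.915 and -0.915, and without mutant 6 and 10 r was -0.789, -0.851 and -0.777. miR-18a, at 314 to 401 normalised counts in wild type, stood at 404, 356 and 345 in mutant 6, 7 and 8 and was lowest in mutant 9 (213) and mutant 10 (178). Its span was thus 2.27-fold, against 10.1-fold for miR-22. The span was smaller still, 1.56-fold for miR-15b and 1.53-fold for miR-106a and miR-17. These relations depended on the scaling. Under scaling by housekeeping mRNAs r was 0.113 for miR-15b and 0.0378 for miR-106a and miR-17, and -0.528 for miR-18a. On raw counts r was -0.591, -0.730 and -0.905.

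Other miRNAs that share reported targets or roles with miR-22 were described from lists chosen with earlier results of these data known. None of their members passed the adjusted threshold in edgeR. DESeq2 called miR-26b and miR-29b, both of the TET list, among 5 of 115 probes tested on the whole panel. Of 9 other miRNAs reported to target TET genes, 6 were kept, and 3 had log2 fold changes above 0 and 3 below (median -0.01). Over all 115 other kept probes, 57 were above 0 and 58 below (median -0.01). The kept TET list members with the highest counts were miR-29a, miR-29b, miR-29c and miR-26b, with r to miR-22 of 0.626, 0.577, 0.736 and 0.00493. Without mutant 6 and 10, r was 0.357 for miR-29a, 0.449 for miR-29b and 0.848 for miR-29c. In mutant 9, where miR-22 lay above the wild type range, miR-29c did too, at 1031 normalised counts. There miR-29a, at 1410, and miR-29b, at 1341, lay below their wild type ranges. So the miR-29 members followed miR-22 only in part and miR-26b did not, and r was below 0 for miR-101b (-0.628) and miR-26a (-0.356).

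Of 25 other miRNA probes listed as regulators of blood cell tumours, 16 were kept, with 7 above 0 and 9 below (median -0.11). Their median r was 0.601, with 12 of 16 above 0. let-7b, let-7c and miR-146a were put on this list with their variation known, so its direction is not independent. Its 4 members with the highest counts differed among themselves: r was -0.515 for miR-16, 0.311 for miR-142-3p, a miRNA of all blood cells, 0.853 for miR-21 and -0.680 for miR-15a. miR-34a, a p53-induced miRNA, had 0.674. The 6 probes of the B-lymphoid list were all kept, with a median r of 0.325. Their r ranged from -0.287 for miR-150, which marks mature lymphocytes, to 0.790 for miR-181a. The arms miR-142-3p and miR-142-5p had 0.311 and -0.213, and miR-155, which is induced on lymphocyte activation, had 0.339.

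**Figure D5:**
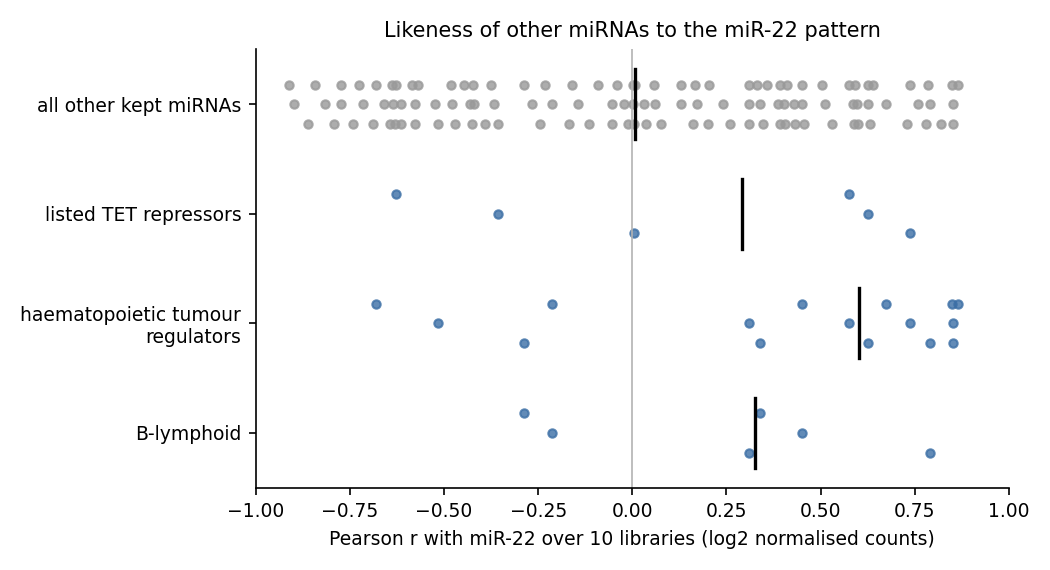
Pearson's r with miR-22 over 10 libraries (horizontal axis) for all 115 other kept miRNAs and for the kept members of 3 lists, 1 point each, with the median as a black line. The medians are 0.00814 for all, 0.291 for reported TET repressors, 0.601 for tumour regulators and 0.325 for the B-lymphoid list, which also holds miRNAs of all blood cells.

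The 4 housekeeping mRNAs on the panel differed in how they ran beside miR-22. B2m, which encodes the MHC class I light chain, had an r of 0.773. Mutant 6, 7 and 8 had 1701, 1544 and 1398 normalised counts, whereas mutant 9 had 3269 and mutant 10 had 3914. Wild type libraries had 3281 to 4719.7, so B2m was low in the same 3 mutant libraries as miR-22 but was not above the wild type range in mutant 9 and 10. Gapdh, a glycolytic enzyme, ran the opposite way, with an r of -0.810. It stood at 198 in mutant 9 and 288 in mutant 10, below the wild type range of 631 to 1004, and at 1269, 1062 and 907 in mutant 6, 7 and 8. Rpl19, a ribosomal protein gene, had -0.580 and Actb, a cytoskeletal actin, had -0.357, and the sign for Rpl19 turned to 0.276 under housekeeping scaling.

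Library depth, markers of other cells and the neighbouring miRNA genes were set beside the miR-22 counts. The r of log2 normalised miR-22 with log2 total mouse miRNA counts was 0.565 (Spearman's rho 0.358, n = 10), the 2 deepest libraries being mutant 9 and 10, and the part of depth in the miR-22 levels was not tested. The 18 markers of other cell types summed to 798 to 921 counts in wild type and 647 to 1064 in mutant libraries, and none of them was kept. The sum was 706 in mutant 9 and 1064 in mutant 10. No marker was at 0, since every probe carries background counts. miR-223, a myeloid miRNA, counted 25 in mutant 9 and 137 in mutant 10, and miR-126-3p, an endothelial and stem cell miRNA, counted 47 and 234. Erythroid miR-451 counted 74 and 76 and miR-144 counted 37 and 33, against 49 to 103 and 29 to 40 in wild type. Wild type counts were 28 to 96 for miR-223 and 45 to 65 for miR-126-3p. In mutant 9, where miR-22 was 1.96 times the wild type mean, these 4 markers were thus below the background threshold of 107 counts. In mutant 10, where miR-22 was highest, miR-223 and miR-126-3p were above the threshold of 102 counts and above every wild type library. There miR-126-3p was at 3.63 times its wild type mean. All wild type counts of miR-126-3p were under the background thresholds, so that ratio is one to background counts. The part of miR-223 and miR-126-3p in the miR-22 level was not tested. In mutant 6, 7 and 8, where miR-22 was low, miR-126-3p counted 105, 70 and 97, also above every wild type count. The count in mutant 6 was above its threshold of 95.3, while those in mutant 7 and 8 were under their thresholds of 127 and 106. miR-223 counted 24, 17 and 21 in these libraries, below every wild type count. These miR-223 counts were also under the negative control means of 48.1, 58.5 and 38.9. Of the wild type libraries, only wild type 4 was above its threshold for miR-223. Such differences lie within background counts. The other arm of miR-126, miR-126-5p, counted 19 to 37 over the 10 libraries, and erythroid miR-486 counted 30 to 49. Each was above background in 0 libraries. In bulk cultures, more cells with miR-22 and more miR-22 per cell cannot be told apart. Of the 4 other miRNA genes of the RefSeq table within 1000000 bases of Mir22, Mir132 and Mir212 were on the panel, 289969 and 290238 bases away. miR-132 counted 41 to 135 and miR-212 counted 18 to 43. Neither was kept, and miR-132 was highest in wild type 5, the wild type library with the least miR-22.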

How the data were processed

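Total RNA (an input of 100 ng, extracted with a miRNeasy kit) was run on an nCounter miRNA panel, per the labels' protocols. The authors deposited whole-number counts for 626 probes, unnormalised as far as the values show, in 2 tables with the same values. The scanner settings and any earlier correction are not stated in the labels. Summary columns of the tables were left out.

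Groups came from the sample titles. The 116 kept probes went into edgeR 4.0.16 under R 4.3.3. TMM factors were 0.872 to 1.11, genotype was the term in the quasi-likelihood model, robust estimation was on, and p-values were adjusted over all kept probes by Benjamini-Hochberg. The miR-22 share was compared by an exact permutation test. The fit was tested on simulated data. Alternatives were DESeq2 1.42.0, limma 3.58.1 with voom, 5 other scalings, 3 other filters, background subtraction, edgeR with robust estimation off, and the omission of single libraries and of pairs.

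The text names miR-22, the 6 most and 3 least alike kept miRNAs, 2 neighbours on each side in level and spread, up to 4 kept members of each list by count, panel miRNAs within 1000000 bases of Mir22 and the housekeeping mRNAs; other names were chosen after their values were seen. miR-22 and the lists were chosen with earlier results of these data known. The result for 1 list of miRNAs is not reported here.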

Additional observations from a re-analysis of the deposited data

How the results depend on the processing

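Of 43 alternative settings, the genotype difference of miR-22 changed sign under 10 and passed the adjusted threshold under 1, mutant 9 and 10 left out with the filter applied again, which was chosen after seeing the data. In edgeR it ran from -0.41 (without mutant 10) to 0.45 (without mutant 6) with single libraries left out, and was -0.01 without mutant 9. With pairs left out it was below 0 without wild type 1 and 5 (-0.067), wild type 3 and 5 (-0.061), mutant 6 and 10 (-0.13), mutant 7 and 10 (-0.26), mutant 8 and 10 (-0.28) and mutant 9 and 10 (-1.39), and -1.40 for the last pair with the filter applied again. limma-voom gave -0.35. The other 11 settings of scaling, filter and test gave 0.05 to 0.88, the highest under housekeeping scaling, which moved the median of all kept miRNAs to 0.46, while positive-control scaling moved it to 0.20. The share difference ran from -0.0398 without mutant 10 to 0.0416 without mutant 6, with -0.0211 without mutant 9 and -0.00736 without wild type 5. The count of miRNAs passing, 0 in edgeR, was 5 in DESeq2, 1 without mutant 9 (miR-16), 1 without mutant 10 (miR-29b), 1 without mutant 6 and 7 (miR-30d), 1 without mutant 8 and 10 (miR-29b), 5 without mutant 9 and 10 (let-7b, let-7c, miR-210, miR-29b and miR-804) and 6 with the filter applied again, the sixth being miR-22. With single libraries left out the count ran from 0 to 1. The cause of these changes was not tested. The ratio of the highest to the lowest library ran from 6.73 to 17.4. Counts near background limit what can be said of mutant 6. No paired analysis was possible because wild type samples are numbered 1 to 5 and mutant samples 6 to 10, so the genotypes share no replicate number.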
